A study of Mus musculus with 18 samples.

Results

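The 10 genes described here code for enzymes that remove reactive oxygen species or for targets of the transcription factor NRF2, together with the gene of NRF2 itself. They were taken by symbol from a table of gene expression in mouse liver and were Gpx1, Cat, Sod1, Sod2, Nqo1, Gclc, Gclm, Txnrd1, Srxn1 and Nfe2l2. All 10 were found among the 19057 genes of the table. Levels are in RPKM, reads scaled to transcript length and to the mapped reads of the library. All 10 genes passed the filter on low values, which kept genes averaging 1 RPKM or more.

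The livers came from male ICR mice, an outbred stock, of 10 weeks of age, and polyadenylated RNA was sequenced in 6 groups of 3 libraries. Con mice were fed a regular diet and given saline. HS mice received a high-fat diet from 3 to 10 weeks of age and 1 dose of streptozotocin (STZ), a toxin of pancreatic beta cells, at 85 mg/kg and 5 weeks of age. Diet and STZ were always given together, so their effects cannot be told apart. A10-FMT and Con-FMT mice had the same diet and STZ and were also dosed orally, from 5 to 7 weeks of age, with microbiota from the small intestine of donors. The donors of A10-FMT had received alginate oligosaccharide (AOS) at 10 mg/kg and those of Con-FMT water, and the material of each donor group was pooled, so all recipients of a group shared 1 inoculum. The A10 and HS+A10 groups are known from the labels alone, which give AOS at 10 mg/kg without and with the diet and STZ, and the length of their dosing is not given in the sources used here. Nothing says whether the 3 libraries of a group came from separate animals, and p-values below measure the spread between libraries. The study was about the microbiota of AOS-dosed donors in mice with diabetes from diet and STZ, with semen quality as its main readout.

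NRF2, the product of Nfe2l2, is held in the cytosol and marked for degradation by KEAP1. Oxidants and electrophiles modify KEAP1, after which NRF2 enters the nucleus, pairs with a small MAF protein and binds antioxidant response elements, short DNA motifs near genes for detoxification, glutathione synthesis and the thioredoxin system. BACH1 competes for the same elements. The regulation acts mostly on the stability of the protein, so the level of Nfe2l2 mRNA need not follow NRF2 activity, and the data described here are RNA levels only. The study did measure GPX1 protein in liver by Western blot. It reported an increase by A10-FMT and no significant difference between Con and HS. The superoxide dismutases, catalase and glutathione peroxidase 1 form the basal line of defence that a hepatocyte keeps up at all times.

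The core of the antioxidant response element, TGACNNNGC, was searched on both strands in windows running from 250 bases before to 50 bases after each RefSeq gene start (GRCm38.p6, the mouse build that mm10 corresponds to). It occurred in 12.4% of all 32851 windows and in 5 of the 11 windows of these genes, at Nfe2l2, Srxn1, Txnrd1, Gclm and Sod1. No match was found in the windows of Cat, Gpx1, Nqo1 and Sod2, which says only that these letters are not in those windows. Gclc was not among the windows. A match is a run of letters and not a measured binding site. The 4 windows below, 5′ to 3′ on the strand of the gene, are those of the NRF2 targets and of Nfe2l2 with a match, and capitals mark the core motif on either strand. They lie at chr2:75704614-75704913 (Nfe2l2, minus strand), chr2:152105274-152105573 (Srxn1, plus), chr10:82858956-82859255 (Txnrd1, plus, 1 of its 3 starts) and chr3:122245307-122245606 (Gclm, plus).
Nfe2l2: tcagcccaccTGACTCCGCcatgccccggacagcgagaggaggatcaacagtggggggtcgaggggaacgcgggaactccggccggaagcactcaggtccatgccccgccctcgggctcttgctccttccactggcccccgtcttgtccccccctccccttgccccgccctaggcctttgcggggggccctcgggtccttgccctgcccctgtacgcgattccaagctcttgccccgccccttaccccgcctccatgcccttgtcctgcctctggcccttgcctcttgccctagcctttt
Srxn1: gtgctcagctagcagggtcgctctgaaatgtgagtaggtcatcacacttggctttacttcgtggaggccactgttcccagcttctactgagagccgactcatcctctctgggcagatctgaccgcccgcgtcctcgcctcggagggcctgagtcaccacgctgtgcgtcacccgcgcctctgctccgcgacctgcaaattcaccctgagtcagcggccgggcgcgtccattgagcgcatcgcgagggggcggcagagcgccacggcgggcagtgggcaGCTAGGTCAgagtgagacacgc
Txnrd1: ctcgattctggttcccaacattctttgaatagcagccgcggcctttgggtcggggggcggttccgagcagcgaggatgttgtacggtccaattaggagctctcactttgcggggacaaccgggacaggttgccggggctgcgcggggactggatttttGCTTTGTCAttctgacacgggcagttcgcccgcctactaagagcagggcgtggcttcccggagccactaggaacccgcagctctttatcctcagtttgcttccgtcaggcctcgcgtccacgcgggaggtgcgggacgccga
Gclm: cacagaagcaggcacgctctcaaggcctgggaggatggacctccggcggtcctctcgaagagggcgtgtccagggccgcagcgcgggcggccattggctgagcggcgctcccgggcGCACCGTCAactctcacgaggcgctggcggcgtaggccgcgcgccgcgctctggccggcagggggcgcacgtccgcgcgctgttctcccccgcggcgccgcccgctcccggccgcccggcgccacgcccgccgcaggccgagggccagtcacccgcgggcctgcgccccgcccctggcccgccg
The match began 240 bases before the start in Nfe2l2, 92 before it in Txnrd1 and 134 before it in Gclm, and 28 bases after it in Srxn1.

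The libraries were close in relative depth, between 0.953 and 1.039 of their mean by the step between low values of 6 genes, but read totals were not part of the table and no counting intervals can be given. Hepatocyte markers, albumin included, were high in all 18 libraries (summed level 37942 to 57637 RPKM). Replicate 3 of Con and replicate 3 of A10 lay between the other 2 libraries of their group for 85.7% and 81.3% of the genes that differed within the group, against 33.9% to 67.6% for the other 16 libraries. Replicate 3 of Con-FMT carried 10 pancreatic acinar markers at a summed 19748 RPKM, against 14.1 to 50.04 RPKM in the other 17. The values of called members without these libraries are given with their comparisons. In whole liver, a change in the number of cells of a type and a change of RNA per cell cannot be told apart.

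Across all 18 libraries the members covered a wide span of levels. Gpx1, which reduces hydrogen peroxide with glutathione, was the highest at a mean of 1914 RPKM and rank 44 of all genes, followed by Sod1, the cytosolic superoxide dismutase, at 1353 RPKM (rank 60) and Cat, the peroxisomal enzyme that splits hydrogen peroxide, at 1329 RPKM (rank 62). The ranges of Sod1 (1082 to 1655 RPKM) and Cat (933 to 1690 RPKM) overlapped almost completely. A second tier held Gclc and Gclm, the catalytic and the modifier subunit of the enzyme that makes the first step of glutathione synthesis, with means of 87.1 and 83.6 RPKM and overlapping ranges. Sod2, the mitochondrial superoxide dismutase, had its highest library (59.4 RPKM) under the lowest of Gclm (70.5 RPKM), and overlapped the low end of Gclc, whose lowest library was at 51.1 RPKM. Nfe2l2 (35.4 RPKM) and Txnrd1, the cytosolic thioredoxin reductase (33.4 RPKM), overlapped. Srxn1, sulfiredoxin, which repairs over-oxidised peroxiredoxins, had a mean of 13.8 RPKM. Nqo1, a quinone reductase and a classical NRF2 target, was the lowest at 2.29 RPKM and rank 8511. The highest library of Nqo1 stood at 4.32 times its lowest, that of Gclc at 2.67 times, that of Srxn1 at 2.53 times and that of Nfe2l2 at 2.27 times. Gclm, Sod2 and Txnrd1 varied least, with ratios of 1.33, 1.40 and 1.43.

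**Figure D1:**
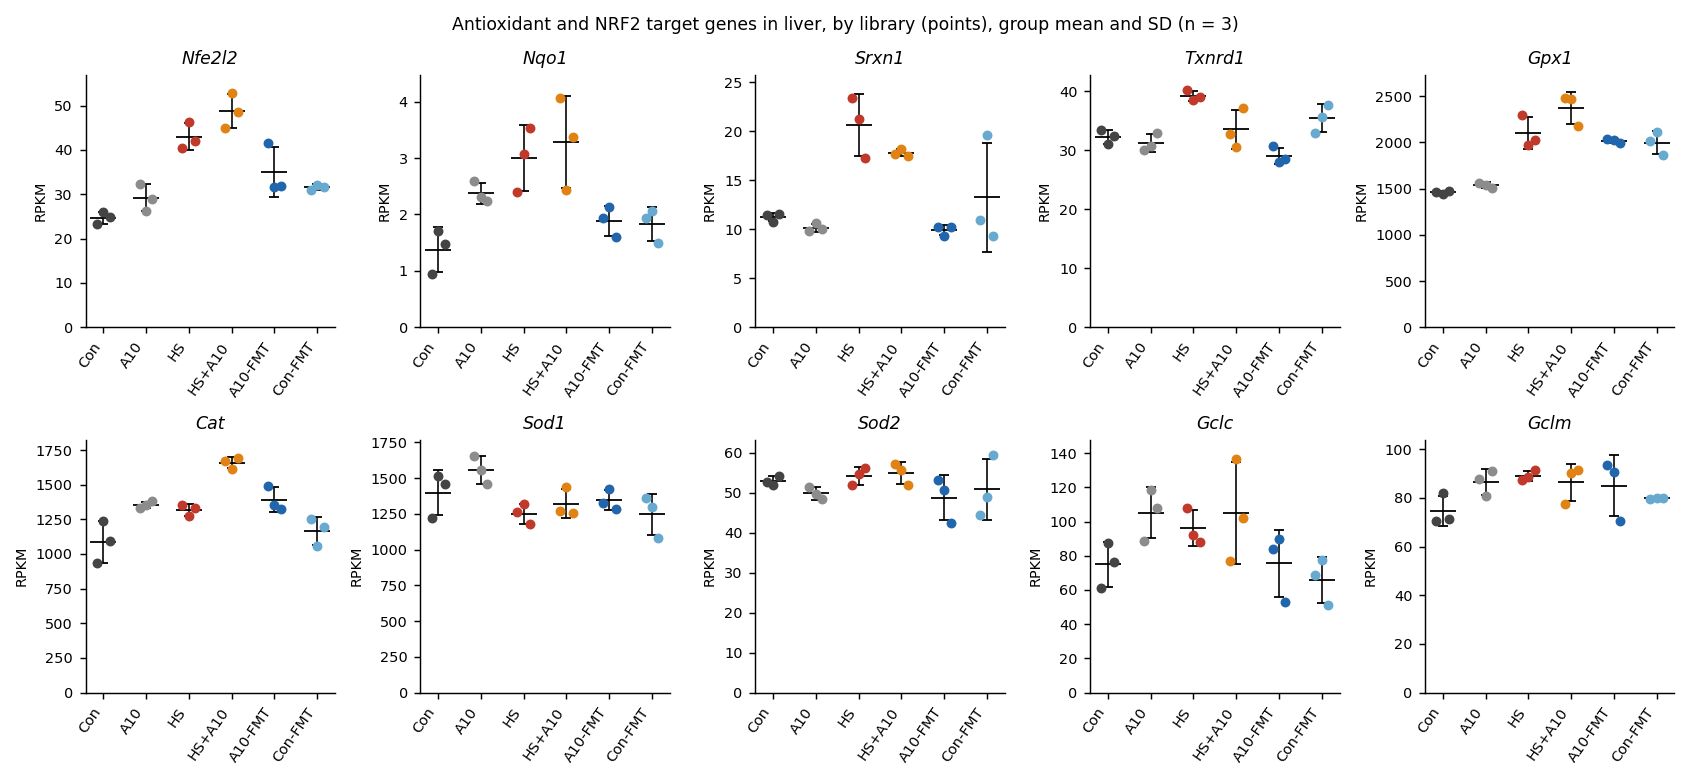
Level of each member in RPKM (vertical axes, starting at 0) in the 6 groups (horizontal axes). Points are libraries, the short line is the group mean and bars are the SD (n = 3). Gpx1 in the 12 libraries with diet and STZ (1862 to 2485 RPKM) lies above all 6 libraries of Con and A10 (1445 to 1566 RPKM), and Srxn1 in Con-FMT holds 1 library at 19.6 RPKM beside 10.9 and 9.27 RPKM.

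The first comparison asked what diet and STZ did to these genes in the absence of AOS. In HS against Con, 5 of the 10 members rose (Nfe2l2, Gpx1, Nqo1, Srxn1 and Txnrd1), none fell and 5 did not pass the test. The test was limma on log2(RPKM + 1) over the 12 libraries of these groups and of both recipient groups, with Benjamini-Hochberg adjusted p under 0.05 over all tested genes. Over all 10159 tested genes 9.8% were called, 890 higher and 106 lower, and the median change of all genes was 0.14 on the log2 scale. The median of the members was 0.33. An exact permutation test of 3 against 3 libraries cannot go below p = 0.1 for a single gene, so the calls rest on the fit across all genes.

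Nfe2l2 was measured at 23.3, 25.9 and 24.8 RPKM in the Con libraries and at 40.5, 46.4 and 42.0 RPKM in the HS libraries. The groups did not overlap, and HS stood at 1.74 times Con. The log2 change was 0.78 (SE 0.11, adjusted p = 0.0029 by limma), and no alternative processing took it over the 0.05 threshold (adjusted p 0.0003972 to 0.0171).

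Gpx1 levels were 1461, 1445 and 1472 RPKM in Con and 2295, 1971 and 2029 RPKM in HS. Every HS library lay above every Con library, and the ratio of means was 1.44. The log2 change of 0.52 (SE 0.09) had an adjusted p of 0.00865 by limma. With each library scaled to the same median the change was 0.335 and the call was lost (adjusted p = 0.0940, with 0.00112 to 0.0940 over all alternatives).

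Nqo1 was low throughout, at 0.94, 1.71 and 1.48 RPKM in Con and 2.39, 3.07 and 3.54 RPKM in HS. The groups did not overlap and HS was 2.18 times Con, while the change on the log2(RPKM + 1) scale, which understates changes of low genes, was 0.75 (SE 0.15, adjusted p = 0.0147 by limma). Without replicate 1 of Con, the lowest library, it was 0.615 and just missed the threshold (adjusted p = 0.0536, the highest over the alternatives, which began at 0.00565).

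Srxn1 stood at 11.5, 10.8 and 11.5 RPKM in Con and at 23.4, 21.2 and 17.2 RPKM in HS. All HS libraries were higher, with a log2 change of 0.81 (SE 0.21, adjusted p = 0.0350 by limma). Its call was lost with either rescaling, without the filter on low values and without any 1 of 5 of the 6 libraries (all but replicate 3 of HS), while the change stayed between 0.635 and 0.93 and adjusted p ran from 0.00807 to 0.134.

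Txnrd1 was at 33.3, 31.0 and 32.4 RPKM in Con and at 40.1, 38.4 and 38.9 RPKM in HS. The replicates were tight and the groups apart, but the step was small, at 1.21 times and a log2 change of 0.27 (SE 0.07, adjusted p = 0.0425 by limma). This call was lost without any single library of either group and with either rescaling (adjusted p 0.0252 to 0.531 over all alternatives), and after median scaling the change was 0.092.

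The other members did not pass. Cat was measured at 933, 1237 and 1090 RPKM in Con and 1351, 1271 and 1331 RPKM in HS, without overlap, with a log2 change of 0.29 (95% interval 0.03 to 0.54, adjusted p = 0.126 by limma). Gclc and Gclm, the glutathione synthesis pair, were also without overlap, with changes of 0.37 (-0.10 to 0.83) and 0.26 (0.02 to 0.49). Sod1 had a change of -0.15 (-0.41 to 0.10) with overlapping groups. Sod2 had one of 0.03 (-0.22 to 0.28), and its sign turned under both rescalings. Sod1 and Sod2 had the smallest estimates of the list here.

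**Figure D2:**
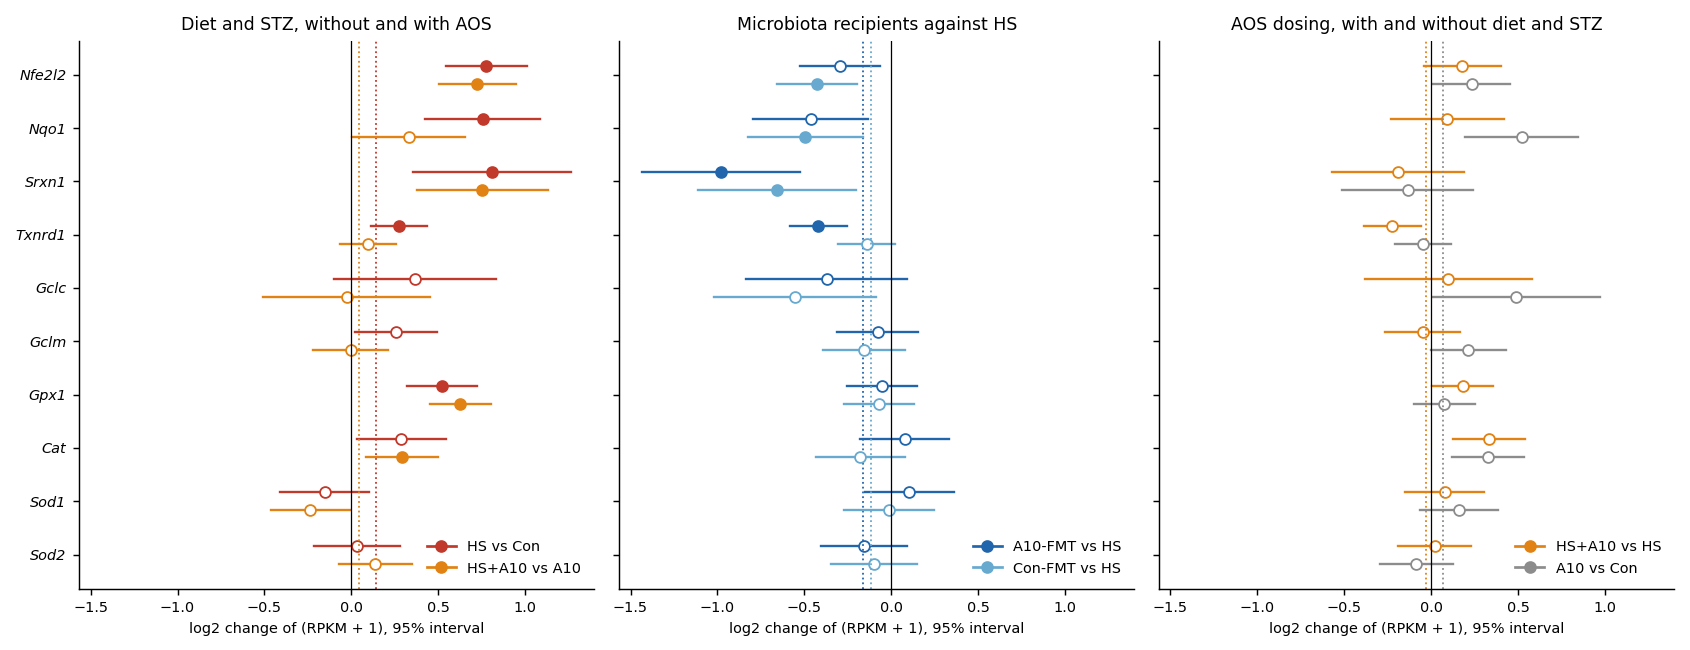
Log2 change of RPKM + 1 of each member (horizontal axes) with its 95% interval from limma, for diet and STZ without and with AOS (left), the 2 groups of microbiota recipients against HS (middle) and AOS dosing with and without diet and STZ (right). Filled points have an adjusted p under 0.05, and dotted lines give the median change of all tested genes. Nfe2l2, Srxn1 and Gpx1 are filled in both comparisons on the left, and no point is filled on the right.

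The call count for HS against Con depended on scaling. With libraries scaled to the same median, 2 members were called (Nfe2l2 and Nqo1) and 497 genes in all, 242 of them higher, and with quantile normalization 3 were called (Nfe2l2, Nqo1 and Gpx1). Summed levels of 6 stellate cell markers were 110 to 159 RPKM in HS and 69.4 to 80.6 RPKM in Con, and those of 8 erythroid markers 2887 to 10042 RPKM against 1256 to 1972 RPKM, with the red cell membrane genes Slc4a1 and Epb42 at 0.38 RPKM or less in every library. The 10 acinar markers summed to 14.1 to 27.8 RPKM in HS and 32.3 to 41.2 RPKM in Con, most of it Cela1 (13.9 to 24.2 against 30.8 to 40.5 RPKM). Their part in the changes was not tested. Replicate 2 of HS had the highest erythroid and stellate sums of its group, the lowest Gpx1 (1971 RPKM) and the highest Nfe2l2 (46.4 RPKM). Without it the Gpx1 change was 0.56 (adjusted p = 0.0234 by limma), and any link of these sums to the members was not tested.

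Without replicate 3 of Con, 3 members passed by limma, namely Nfe2l2 (0.78, adjusted p = 0.0171), Gpx1 (0.53, 0.0398) and Nqo1 (0.79, 0.0453). Srxn1 (0.83, adjusted p = 0.0917) and Txnrd1 (0.28, 0.117) did not.

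**Figure D3:**
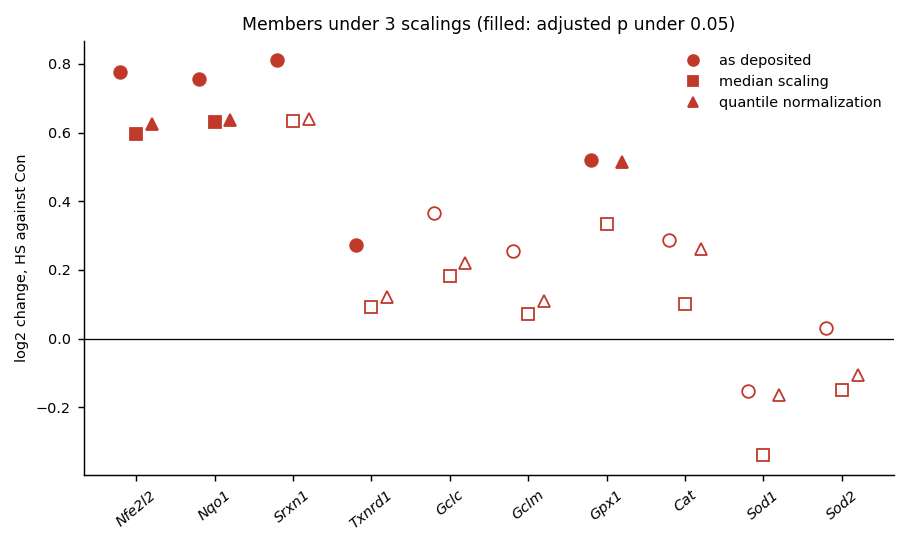
Log2 change of each member (horizontal axis) in HS against Con (vertical axis) with RPKM as deposited (circles), after scaling to a common median (squares) and after quantile normalization (triangles). Filled symbols have an adjusted p under 0.05: 5 circles, 2 squares and 3 triangles, and Sod2 is the only member whose sign turns.

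The comparison of HS+A10 with A10 gave a second view of diet and STZ, in libraries that the first did not use. It was fitted by limma over all 18 libraries. Here 4 members rose (Gpx1, Nfe2l2, Srxn1 and Cat) and none fell, against 20.9% of 10204 genes called (1388 of 2131 higher, and 1243 of 2394 after median scaling). Nfe2l2 was at 32.4, 26.3 and 28.9 RPKM in A10 and 45.0, 52.8 and 48.6 RPKM in HS+A10, a log2 change of 0.72 (SE 0.10, adjusted p = 3.20e-04 by limma). Gpx1 was at 1566, 1539 and 1504 RPKM in A10 and 2485, 2467 and 2176 RPKM in HS+A10, a change of 0.63 (SE 0.08, adjusted p = 1.64e-04). Srxn1 was at 9.80, 10.6 and 10.1 RPKM in A10 and 17.7, 18.2 and 17.5 RPKM in HS+A10, a change of 0.75 (SE 0.18, adjusted p = 0.00771). None of these pairs of groups overlapped, and the 3 calls held under every alternative with the 0.05 threshold. Without replicate 3 of A10 the changes were 0.72 for Nfe2l2 (adjusted p = 0.00245), 0.61 for Gpx1 (0.00159) and 0.75 for Srxn1 (0.0279).

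Cat stood at 1332, 1352 and 1379 RPKM in A10 and 1672, 1613 and 1690 RPKM in HS+A10. The change of 0.29 (SE 0.10, adjusted p = 0.0465 by limma) lost its call without any 1 library and without the filter on low values, and the adjusted p ran from 0.00313 to 0.115 (0.0935 without replicate 3 of A10). Nqo1, at 2.59, 2.31 and 2.23 RPKM in A10 and 4.06, 2.43 and 3.38 RPKM in HS+A10, overlapped between the groups and did not pass (0.33, 95% interval 0.00 to 0.66, adjusted p = 0.148) except without replicate 2 of HS+A10 (0.481, adjusted p = 0.0482, with 0.0482 to 0.453 over the alternatives). Txnrd1 (0.10, -0.07 to 0.26) and Gclm (0.00, -0.22 to 0.21) did not pass either. Sod1 was lower in every HS+A10 library (1256 to 1438 RPKM) than in A10 (1461 to 1655 RPKM), with a change of -0.24 that did not pass (adjusted p = 0.131) except after median scaling (-0.298, adjusted p = 0.0477, with 0.0477 to 0.410 over the alternatives). Summed markers were apart as well between HS+A10 and A10, at 110 to 116 against 79.4 to 88.95 RPKM for stellate cells, 53.2 to 63.6 against 36.7 to 45.85 RPKM for endothelium and 28.0 to 44.4 against 20.1 to 27.1 RPKM for cholangiocytes (5 genes). Summed hepatocyte markers (46227 to 49234 against 49721 to 56441 RPKM) were lower in HS+A10. Of these genes Apoa1 (6831 to 7232 against 10022 to 10715 RPKM) and Ttr (3342 to 4240.5 against 5321 to 6015 RPKM) were lower. Cyp2e1 was higher in every HS+A10 library (5515 to 6236 against 2570 to 2750 RPKM), and the others overlapped. Summed neutrophil (1.13 to 2.19 against 2.27 to 4.13 RPKM) and acinar markers (18.8 to 30.3 against 31.0 to 50.04 RPKM) were also lower. The acinar sum was mostly Cela1 (17.99 to 29.65 against 30.55 to 48.8 RPKM). The part of these in the changes was not tested.

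Whether diet and STZ changed a member differently with and without AOS was tested as an interaction. It was called for none of the 10 members by limma, and for none at an unadjusted p under 0.05. Of all 10204 genes 0.0098% were called, and 1320 had an unadjusted p under 0.05. The estimates ran from -0.43 for Nqo1 (95% interval -0.89 to 0.04, adjusted p = 0.419) to 0.11 for Sod2 (-0.19 to 0.40). The intervals of Nqo1, Gclc (-1.07 to 0.29) and Srxn1 (-0.59 to 0.48) leave room for sizeable differences.

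Gpx1 was also the single member that separated all 12 libraries of the 4 groups with diet and STZ from the 6 of Con and A10. Its lowest library with diet and STZ (1862 RPKM, Con-FMT) exceeded its highest without (1566 RPKM, A10). Of all 10204 genes 2.66% did not overlap in this way. Nfe2l2 came close, with 30.9 to 52.8 RPKM against 23.3 to 32.4 RPKM, the overlap lying between 1 A10 library and the recipients.

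The microbiota recipients were then set against HS, which asked what the transfer added to diet and STZ. Both of these comparisons, and HS against Con, share the HS libraries, so their values are given side by side and not as separate support. In A10-FMT 2 members fell (Txnrd1 and Srxn1) and none rose, where 16.5% of all genes were called (174 of 1672 higher, and 396 of 727 after median scaling) and the median of all genes was -0.16. In Con-FMT 3 members fell (Nfe2l2, Nqo1 and Srxn1) and none rose, where 18.2% of all genes were called (374 of 1849 higher, and 624 of 1510 after median scaling) and the median was -0.11.

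Txnrd1 was at 30.6, 28.1 and 28.4 RPKM in A10-FMT and at 33.0, 35.7 and 37.7 RPKM in Con-FMT, beside 38.4 to 40.1 RPKM in HS. All recipient libraries were under all HS libraries. The change was -0.42 in A10-FMT (SE 0.07, adjusted p = 0.00648 by limma) and -0.14 in Con-FMT (adjusted p = 0.209). The first lost its call after median scaling (-0.234, adjusted p = 0.0870) and quantile normalization (-0.261), with adjusted p from 0.00227 to 0.0870 over all alternatives.

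Srxn1 was at 10.2, 9.31 and 10.2 RPKM in A10-FMT, near the 10.8 to 11.5 RPKM of Con and under the 17.2 to 23.4 RPKM of HS. The change against HS was -0.98 (SE 0.21, adjusted p = 0.0133 by limma), and the call was lost after median scaling (-0.799, adjusted p = 0.0581) and without replicate 2 of A10-FMT (-0.937, adjusted p = 0.0513), the range over alternatives being 0.00222 to 0.0581. In Con-FMT the 3 libraries were far apart, at 10.9, 19.6 and 9.27 RPKM, and replicate 2 lay within the HS range. The fitted change of -0.66 (adjusted p = 0.0480 by limma) lost its call with either rescaling, with both other filters and without replicate 1 or 3 of Con-FMT or replicate 1 or 2 of HS (adjusted p 0.00219 to 0.139, and a change of -0.454 without replicate 3 of Con-FMT).

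Nfe2l2 was at 41.6, 31.7 and 32.0 RPKM in A10-FMT and at 30.9, 32.2 and 31.8 RPKM in Con-FMT, beside 40.5 to 46.4 RPKM in HS. Replicate 1 of A10-FMT lay within the HS range. The change was -0.29 in A10-FMT (adjusted p = 0.0773 by limma), and -0.419 without that library (adjusted p = 0.0144, with 0.0144 to 0.433 over the alternatives). In Con-FMT it was -0.43 (SE 0.11, adjusted p = 0.0184), and the call was lost without replicate 1 of Con-FMT (adjusted p = 0.0541) and without replicate 2 of HS (adjusted p = 0.0645, with 0.00866 to 0.0645 over the alternatives). Without replicate 3 of Con-FMT, the library with acinar transcripts, it was -0.43 (adjusted p = 0.0389).

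Nqo1 was at 1.93, 2.13 and 1.6 RPKM in A10-FMT and at 1.94, 2.06 and 1.49 RPKM in Con-FMT, beside 2.39 to 3.54 RPKM in HS. Neither recipient group overlapped HS. The changes were nearly alike, -0.46 and -0.49, and fell on either side of the threshold (adjusted p = 0.0563 and 0.0420 by limma). That of A10-FMT passed with all 18 libraries in the fit (adjusted p = 0.0410) and without replicate 1 of HS (-0.579, adjusted p = 0.0351), in a range of 0.0351 to 0.236. The Con-FMT call was lost with both rescalings, with no filter, with a pseudocount of 0.1 and without any 1 of 5 libraries (all but replicate 1 of HS), the adjusted p running from 0.0296 to 0.168, with -0.405 and 0.111 without replicate 3 of Con-FMT.

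Gpx1 did not follow these genes. It was at 2040, 2024 and 1997 RPKM in A10-FMT and 2019, 2110 and 1862 RPKM in Con-FMT, within or beside the HS range of 1971 to 2295 RPKM. Its changes against HS were -0.05 (95% interval -0.25 to 0.15) and -0.07 (-0.27 to 0.13), and that of A10-FMT turned sign under both rescalings. Gclc, at 84.0, 89.6 and 53.2 RPKM in A10-FMT and 68.9, 77.6 and 51.1 RPKM in Con-FMT, had wide intervals (-0.37, -0.84 to 0.09, and -0.55, -1.02 to -0.09) and did not pass. Cat, Sod1, Sod2 and Gclm had changes between -0.18 and 0.10 in the 2 recipient groups. Kupffer cell markers (7 genes) summed to 43.1 to 52.8 RPKM in A10-FMT and 62.7 to 107 RPKM in HS. Stellate markers were at 81.5 to 103 RPKM in A10-FMT and 80.9 to 97.1 RPKM in Con-FMT, under the 110 to 159 RPKM of HS, and erythroid markers at 1136 to 2049 RPKM in A10-FMT against 2887 to 10042 RPKM in HS. In A10-FMT against HS endothelial markers were lower (29.1 to 39.8 against 39.96 to 45.2 RPKM). Summed hepatocyte (44003 to 54797 against 38487 to 43656 RPKM) and acinar markers (32.1 to 37.8 against 14.1 to 27.8 RPKM) were higher. The acinar sum was mostly Cela1 (31.3 to 35.9 against 13.9 to 24.2 RPKM). Of the hepatocyte markers Ttr and Cyp2e1 were higher in every A10-FMT library. Cps1 (249 to 333 against 378 to 941 RPKM) and Hnf4a (110 to 114 against 118 to 140 RPKM) were lower, and the others overlapped. Their part in the changes was not tested.

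The direct comparison of A10-FMT with Con-FMT asked whether the donor's AOS dosing mattered. One member differed, Txnrd1, which was lower in every A10-FMT library (28.1 to 30.6 RPKM) than in every Con-FMT library (33.0 to 37.7 RPKM), with a log2 change of -0.28 (SE 0.07, adjusted p = 0.0305 by limma). Of all 10159 genes 13.8% were called (493 of 1401 higher, and 936 of 1624 after median scaling). The Txnrd1 call was lost after both rescalings and without replicate 2 or 3 of either group, and without replicate 3 of Con-FMT the change was -0.234 (adjusted p = 0.0873, with 0.0203 to 0.128 over all alternatives). Cat was higher in every A10-FMT library (1493, 1355 and 1324 RPKM) than in Con-FMT (1255, 1057 and 1192 RPKM). Its change of 0.25 (95% interval 0.00 to 0.51, adjusted p = 0.174) passed after median scaling (0.329, adjusted p = 0.0361) and quantile normalization (0.368, adjusted p = 0.0303), in a range of 0.0303 to 0.396. Gpx1 (0.02, -0.18 to 0.22), Nqo1 (0.03, -0.30 to 0.36) and Sod1 (0.12, -0.14 to 0.37) did not pass. Neutrophil markers (5 genes) summed to 0.75 to 2.28 RPKM in A10-FMT and 4.79 to 8.58 RPKM in Con-FMT. These sums were low, with 2 or 3 of the 5 genes at 0 in each A10-FMT library. Summed hepatocyte markers overlapped (44003 to 54797 against 37942 to 50561 RPKM). Of these genes Hnf4a (110 to 114 against 177 to 197 RPKM), Tat (444 to 657 against 1058 to 1137 RPKM) and Cps1 (249 to 333 against 425 to 658 RPKM) were lower. Cyp2e1 was higher (5701 to 6513 against 5125 to 5386 RPKM), and the others overlapped. The part of these markers was not tested.

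AOS dosing itself gave no called member. In HS+A10 against HS none of the 10 passed by limma, where 7.32% of all genes were called (301 of 747 higher, and 579 of 935 after median scaling). An unadjusted p under 0.05 was found for 3 members and for 2544 of all 10204 genes. Cat was the nearest, at 1672, 1613 and 1690 RPKM in HS+A10 against 1351, 1271 and 1331 RPKM in HS. The groups were well apart, with a change of 0.33 (95% interval 0.12 to 0.54, adjusted p = 0.0522), and it passed after both rescalings, with the filter at 5 RPKM and without the variance trend (adjusted p 0.00908 to 0.162 over all alternatives). Txnrd1 was lower in every HS+A10 library (32.8, 30.6 and 37.1 RPKM) than in HS (38.4 to 40.1 RPKM), with a change of -0.22 (-0.39 to -0.06, adjusted p = 0.0849). Without replicate 3 of HS+A10, its highest library, it was -0.298 and passed (adjusted p = 0.0394, with 0.0394 to 0.267 over all alternatives). Gpx1 had a change of 0.18 (0.01 to 0.35, adjusted p = 0.189), which was 0.501 and passed after quantile normalization (adjusted p = 0.00907, with 0.00907 to 0.463 over all alternatives). Nfe2l2 had one of 0.18 (-0.04 to 0.40). Endothelial markers (5 genes) summed to 53.2 to 63.6 RPKM in HS+A10 and 39.96 to 45.2 RPKM in HS, and hepatocyte markers to 46227 to 49234 against 38487 to 43656 RPKM. Of the hepatocyte markers Cyp2e1 was higher in every HS+A10 library (5515 to 6236 against 3014 to 4010 RPKM). Serpina1a was lower (138 to 156 against 171 to 204 RPKM), and the others overlapped. Their part was not tested.

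In A10 against Con, on the regular diet, none of the 10 members passed by limma and 4 had an unadjusted p under 0.05, all with a positive change. Of all genes 0.0686% (7) were called, and 1418 had an unadjusted p under 0.05. Nqo1 was at 2.59, 2.31 and 2.23 RPKM in A10 and 0.94, 1.71 and 1.48 RPKM in Con, without overlap, with a change of 0.52 (95% interval 0.19 to 0.85, adjusted p = 0.189). Cat was at 1332, 1352 and 1379 RPKM against 933, 1237 and 1090 RPKM, also without overlap, with a change of 0.33 (0.12 to 0.54, adjusted p = 0.1997). Gclc (0.49, 0.01 to 0.97) and Nfe2l2 (0.23, 0.01 to 0.45) were higher in every A10 library as well. No alternative brought any member past the threshold in this comparison. Without replicate 3 of A10 or replicate 3 of Con the count stayed at 0. Erythroid markers summed to 2112 to 2742 RPKM in A10 and 1256 to 1972 RPKM in Con, most of it Hba-a1 (2014 to 2494 against 894 to 1854 RPKM). Alas2 was lower in every A10 library (90.3 to 97.0 against 114 to 121 RPKM), and the other erythroid markers overlapped. The part of these markers was not tested.

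A wider list of 35 other NRF2 targets, 32 of which passed the filter, placed the members among their kind. Its counts, and those of the further lists, stand beside the share of all genes called, which was 9.8% in HS against Con, 16.5% in A10-FMT and 18.2% in Con-FMT against HS, 7.32% in HS+A10 against HS and 20.9% in HS+A10 against A10. In HS against Con 3 of the 32 rose (Ephx1, microsomal epoxide hydrolase, 0.84; Abcc2, the canalicular export pump, 0.72; Sqstm1, the autophagy receptor p62, 0.42), none fell, and the list's median was 0.06 against 0.14 for all genes. After median scaling 1 was higher and 2 were lower, and each of the 3 lost its call without replicate 2 of HS and also without replicate 1 of Con (adjusted p up to 0.104). In A10-FMT against HS 12 fell and none rose, with a median of -0.34 against -0.16 for all genes, and 6 fell after median scaling. Gsta2 and Gsta1, glutathione S-transferases, had changes of -2.03 and -1.72 there, and Hmox1, heme oxygenase, one of -0.88. The calls of Gsta2 and Hmox1 held without any single library, and that of Gsta1 was lost without replicate 2 of A10-FMT (adjusted p = 0.0574). In Con-FMT against HS 9 fell and none rose (median -0.30 against -0.11), led by Gsta2 (-2.22), Gsta1 (-1.46) and Osgin1 (-1.25), of which Gsta2 alone held without any single library. After median scaling 6 fell and 1 rose, and without replicate 3 of Con-FMT 7 fell. Gsta1 and Gsta2 are near-identical copies, and reads could be split between them, so their separate values are uncertain.

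In HS+A10 against A10 the same list moved in both directions, with 4 higher and 9 lower of 32. The efflux pumps Abcc3 (1.22) and Abcc2 (0.77) and Ephx1 (0.82) rose. Gstm3 (-1.66) and Gsta3 (-1.24), which are glutathione S-transferases with close paralogs, and Me1, malic enzyme, which makes NADPH (-1.27), fell. Except for Gstm3, lost without replicate 2 of HS+A10 (adjusted p = 0.0654), these calls held without any single library. In HS+A10 against HS 1 rose (Abcc2, 0.56) and 1 fell (Cbr1, carbonyl reductase, -0.65), and both were lost without replicate 1 of HS+A10 or replicate 2 of HS.

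**Figure D4:**
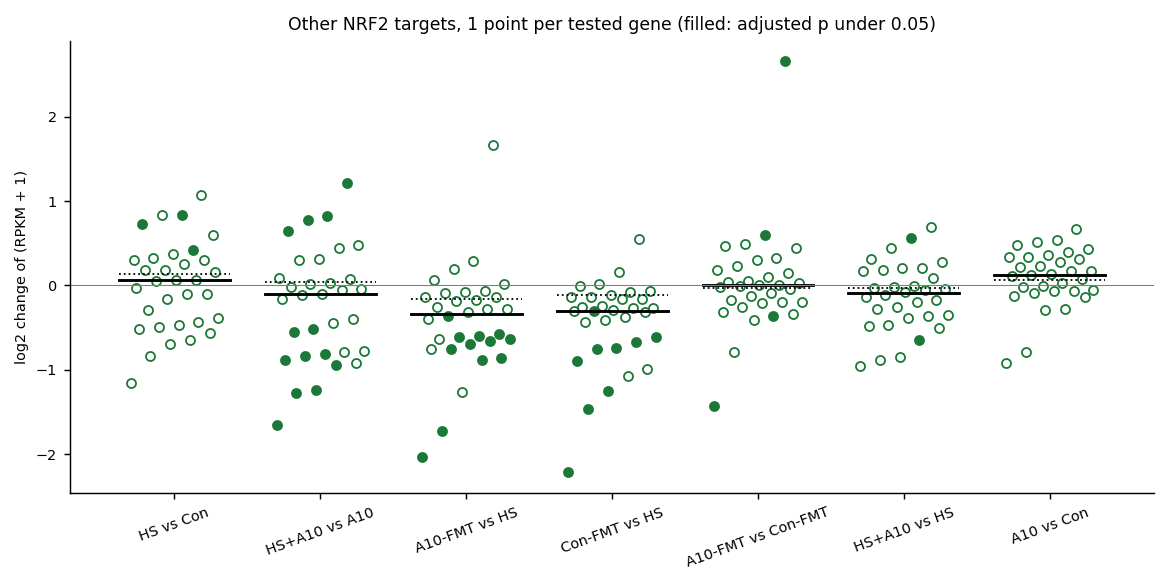
Log2 change of RPKM + 1 (vertical axis) of the 32 tested genes among 35 other NRF2 targets, 1 point per gene, in each comparison (horizontal axis). Filled points have an adjusted p under 0.05, solid lines are the list's median and dotted lines the median of all tested genes. In A10-FMT against HS all 12 filled points lie below 0 (6 after median scaling), and in A10-FMT against Con-FMT Cyp2a5 stands alone at 2.66.

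The list of other antioxidant enzymes held 24 genes, all of which passed the filter. In HS against Con 6 rose and none fell, led by Sod3, the extracellular dismutase (1.15), Nnt, the mitochondrial transhydrogenase that makes NADPH (0.75), and Gpx3, the plasma peroxidase (0.73). Sod3 and Nnt held without any single library, while Gpx3 was lost without each one (adjusted p up to 0.126), and after median scaling 2 were higher and 1 was lower. In HS+A10 against A10 8 rose and 1 fell, with Gpx7 (0.98), Sod3 (0.61) and Nnt (0.53) in front and Txnrd3 lower (-0.29). Of these, Gpx7 was lost without replicate 1 of HS+A10 (adjusted p = 0.0519) and Txnrd3 without any 1 of 4 libraries (adjusted p up to 0.203). In A10-FMT against HS 2 were higher (Msrb1, 0.36, and Txnrd3, 0.33) and 3 lower (Sod3, -0.55, Glrx, -0.38, and Prdx3, -0.31), and 3 were higher and none lower after median scaling. Each of those 5 lost its call without at least 1 library (adjusted p up to 0.146). In Con-FMT against HS Gpx4 was called (-0.35), and in HS+A10 against HS Prdx6 (0.35), both lost without at least 1 library (adjusted p up to 0.116 and 0.112).

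Of 15 regulators and partners of NRF2, 1 was called in HS against Con (higher; 9.8% of all genes), 3 in A10-FMT against HS (1 higher, 2 lower; 16.5%) and 7 in Con-FMT against HS (3 higher, 4 lower; 18.2%). In HS+A10, 3 were called against HS (1 higher, 2 lower; 7.32%) and 4 against A10 (3 higher, 1 lower; 20.9%). Keap1, the inhibitor, was named after its values were seen. It was at 15.03, 15.1 and 14.3 RPKM in Con and 16.5, 16.9 and 17.3 RPKM in HS, and did not pass there. In Con-FMT, at 14.4, 13.2 and 14.3 RPKM, it was lower than in HS (-0.26, adjusted p = 0.0293 by limma), a call lost without any 1 of 5 libraries (adjusted p up to 0.0953). Btrc (-0.45), Gsk3b (-0.37) and Dpp3 (-0.36) were also called lower there, by more than Keap1. Each of these lost its call without at least 1 library (adjusted p up to 0.0856, 0.0579 and 0.101).

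Bach1, the repressor that competes with NRF2, stood at 4.12, 4.16 and 5.14 RPKM in HS, 6.43, 5.19 and 6.48 RPKM in A10-FMT and 9.77, 15.5 and 12.9 RPKM in Con-FMT. Con-FMT lay above every other library of the series, with a log2 change of 1.31 against HS (adjusted p = 6.07e-04). Maff, a small MAF partner, was at 1.52, 1.17 and 1.04 RPKM in HS, 3.00, 2.62 and 5.73 RPKM in A10-FMT and 7.98, 10.3 and 8.12 RPKM in Con-FMT, with changes of 1.04 and 2.12 against HS. It was also higher in HS+A10 than in HS (1.17) and than in A10 (1.06). Mafk, another small MAF gene, was higher in Con-FMT than in HS (0.52, adjusted p = 0.0288), a call lost without at least 1 library (adjusted p up to 0.0847). The calls of Bach1 and Maff held without any single library, replicate 3 of Con-FMT included, and after both rescalings. In HS against Con the single call was Btrc, a ubiquitin ligase subunit (0.44), lost without any library and after both rescalings.

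**Figure D5:**
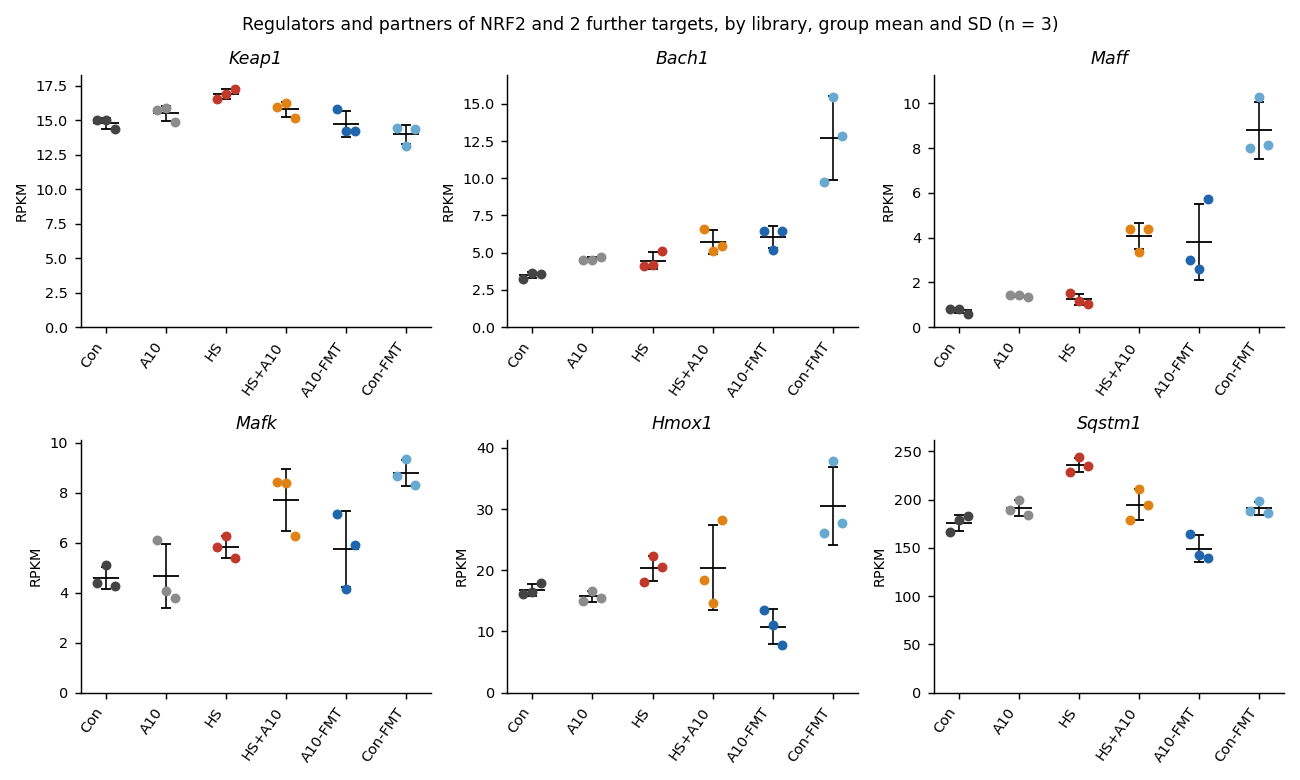
Level in RPKM (vertical axes, starting at 0) of Keap1, Bach1, Maff, Mafk, Hmox1 and Sqstm1 in the 6 groups (horizontal axes). Points are libraries, the short line is the group mean and bars are the SD (n = 3). Bach1 and Maff are highest in the 3 Con-FMT libraries, and Hmox1 spans 26.0 to 37.9 RPKM there against 7.78 to 13.4 RPKM in A10-FMT.

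Hmox1, the target that BACH1 is best known to repress, had its highest mean in Con-FMT, at 26.0, 37.9 and 27.8 RPKM, against 13.4, 11.1 and 7.78 RPKM in A10-FMT and 18.1 to 22.3 RPKM in HS. Replicate 3 of HS+A10, at 28.2 RPKM, lay within the Con-FMT range, and the change of Con-FMT against HS did not pass (0.55, adjusted p = 0.0512 by limma). The difference of A10-FMT from Con-FMT was -1.43 (adjusted p = 0.00112 by limma) and held without any single library. Of the regulators, Maff, Bach1 and Mafk were lower in A10-FMT than in Con-FMT, with none higher, where 13.8% of all genes were called, and the first of them by 1.08 on the log2 scale.

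Glutathione supply was followed with 13 genes, of which 11 passed the filter. In HS against Con 2 were called (both higher), in A10-FMT against HS 3 (lower), in Con-FMT against HS 4 (1 higher, 3 lower), in HS+A10 against HS 1 (lower) and in HS+A10 against A10 2 (1 in each direction). Mat1a, which makes S-adenosylmethionine (1.25), and Cbs, the entry to transsulfuration (0.73), rose in HS against Con, and Mat1a held without any single library while Cbs was lost without replicate 1 of Con (adjusted p = 0.0505). Cbs fell in A10-FMT (-0.90) and Con-FMT (-0.86) against HS and held in both without any library. Its libraries averaged 122 RPKM (SD 10.1) in Con, 206 (SD 44.5) in HS, 109 (SD 8.92) in A10-FMT and 112 (SD 9.14) in Con-FMT. Chac1, which degrades glutathione, was higher in Con-FMT than in HS (2.42), and held. Gss, the enzyme of the second step, was called lower in both recipient groups (-0.38 and -0.39), a call lost without 5 of the 6 libraries in each. Selenoprotein synthesis (8 genes) was followed because Gpx1 and Txnrd1 are selenoproteins. Selenop, the liver's selenium carrier, was the gene called in HS against Con (0.58) and in HS+A10 against A10 (0.69), at 2092 RPKM (SD 99.6) in Con and 3135 RPKM (SD 242) in HS. The first of these was lost without replicate 2 of HS or replicate 1 or 3 of Con (adjusted p up to 0.0623). No gene of these 5 lists (90 tested) was called in A10 against Con by limma, with 16 at an unadjusted p under 0.05, beside 1418 of all 10204 genes.

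Over the 18 libraries the members did not form a single block. Log2 levels of Nfe2l2 had a Pearson r of 0.84 with Gpx1, 0.74 with Nqo1 and Cat and 0.67 with Srxn1, but 0.34 with Txnrd1. Srxn1 and Txnrd1 had an r of 0.66, Gclc and Gclm one of 0.67 and Sod1 and Txnrd1 one of -0.63. These are descriptions over libraries that share groups. Among all 10204 genes the ones most like Nfe2l2 were Dcun1d4 (r 0.96), Smpdl3a (0.94) and Agpat3 (0.93), and those most like Gpx1 were Dglucy (0.96), Agmat (0.95) and Acad10 (0.95). Genes much like Cat included Adcy9 (0.95) and Acbd5 (0.95). Nqo1 was most like Gtdc1 (0.90), Rab14 (0.86) and Plbd2 (0.85), Txnrd1 like Qsox1 (0.91), Ctr9 (0.86) and Slc35e3 (0.85), and Srxn1 like Galnt10 (0.88), Shtn1 (0.88) and Stk10 (0.88).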

How the data were processed

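Polyadenylated liver RNA was sequenced by the study. Its methods give mapping with SOAPaligner and at most 2 mismatches, while the submitters' processing notes name Bowtie 0.12.2 and mm10; these sources do not settle which mapper was used. The authors deposited RPKM values with 2 decimals for 19057 genes and 18 libraries. RPKM divides by all mapped reads, so a few abundant transcripts can shift all others. Read totals are unknown. There, 26 symbols had become dates and 3 were repeated.

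Groups came from the labels. Values were log2-transformed after adding a pseudocount of 1, genes averaging under 1 RPKM were dropped, and limma 3.58.1 (R 4.3.3) was fitted with 1 mean per group, a variance trend and Benjamini-Hochberg adjustment over all tested genes. HS, Con, A10-FMT and Con-FMT were compared in a fit of 12 libraries; comparisons with A10 or HS+A10 used all 18. The study's own test does not use replicate spread and was not run. Its threshold (adjusted p at most 0.001, absolute log2 change at least 1), other pseudocounts, filters, scalings and fits, a replicate block and left-out libraries were alternatives, and the left-out libraries and scalings of the gene lists were added after seeing the data. The script was tested on simulated data. Members and gene lists were chosen with earlier results of these data known. Beside the members, up to 3 called genes of each list in each direction were named, by size of change. For each member called at least once the 3 genes of highest Pearson r were named, except 1 that is not reported here. Promoter windows are from RefSeq (GRCm38.p6). Python 3.11.15, numpy 2.4.6, pandas 2.3.3 and matplotlib 3.10.9 were used.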

Additional observations from a re-analysis of the deposited data

Results flagged for a closer look

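The A10-FMT and Con-FMT mice received inocula from different donor groups, and 11 genes among the 10 members and the 90 tested genes of the lists differed between them by limma, where 13.8% of all genes did. Among the members this was Txnrd1 (log2 change -0.28, adjusted p = 0.0305), whose call was lost after both rescalings and without any 1 of 4 libraries (adjusted p up to 0.128). Among the other NRF2 targets Hmox1 (-1.43, adjusted p = 0.00112) and Sqstm1 (-0.36, adjusted p = 0.0193) were lower in A10-FMT, and Cyp2a5 (2.66, adjusted p = 0.0156) and Gstp1 (0.59, adjusted p = 0.0477) were higher. Cyp2a5 has close paralogs, was at 137 to 268 RPKM in A10-FMT and 17.7 to 41.3 RPKM in Con-FMT, and ranged from 22.1 to 152 RPKM in the other 4 groups. Its call was lost without replicate 1 of Con-FMT (adjusted p = 0.0541). Txnrd3, a thioredoxin reductase, was higher (0.54, adjusted p = 0.00538). The transcription factor genes Maff (-1.08, adjusted p = 0.00627), Bach1 (-0.95, adjusted p = 0.00266) and Mafk (-0.56, adjusted p = 0.0242) were lower, as was Chac1 (-1.43, adjusted p = 0.0146), and Pstk, a kinase of selenocysteine synthesis, was higher (0.47, adjusted p = 0.0322).

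Hmox1, Txnrd3, Maff and Bach1 passed without any single library. Sqstm1, Gstp1, Mafk, Chac1 and Pstk each lost their call without at least 1 library (adjusted p up to 0.0794, 0.137, 0.0716, 0.0519 and 0.111). Each recipient group shares 1 pooled inoculum, so donor group and inoculum cannot be told apart.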

How the results depend on the processing

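The study's threshold called no member in any comparison (0 throughout). Scaling to a common median gave 2 members in HS against Con (5 as reported), 0 in A10-FMT against HS (2), 1 in Con-FMT against HS (3) and 1 in HS+A10 against HS (0). Quantile normalization gave 3, 1, 1 and 2 in the same order. Con-FMT against HS gave 1 member without a filter and 1 with a mean of at least 5 RPKM, and HS+A10 against HS gave 1 with that filter and 1 without the variance trend. Leaving out 1 library gave 2 to 4 members in HS against Con (2 without replicate 1 of Con), 1 to 3 in A10-FMT against HS, 0 to 2 in Con-FMT against HS (0 without replicate 1 of Con-FMT or replicate 2 of HS), 0 to 1 in A10-FMT against Con-FMT, 0 to 1 in HS+A10 against HS and 3 to 4 in HS+A10 against A10. A10 against Con and the interaction gave 0 throughout. The causes were not tested.

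Signs turned for Sod2 in HS against Con (-0.151 with median scaling and -0.105 with quantile normalization) and for Gpx1 in A10-FMT against HS (0.139 and 0.102, and -0.095 to 0.014 with 1 library left out). Over 38 followed changes and 532 values, 456 kept direction and side of the threshold, 58 lost a call, 13 gained one and 5 turned sign. Same-numbered libraries of different groups mostly deviated together little (45 pairs, median r 0.007, r from -0.126 to 0.262, 12 over 0.1). Differently numbered libraries were not compared, so these values cannot decide whether the numbers pair the samples. With the replicate block the members called were 4 in HS against Con, 2 in each recipient group against HS, 0 in A10-FMT against Con-FMT (Txnrd1, adjusted p = 0.0580) and 3 in HS+A10 against A10 (not Cat, 0.0658). Without known read totals, a low gene such as Nqo1 (under 5 RPKM in every library) is the least certain.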

Other observations

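Of the genes that turn selenium into selenoproteins, Eefsec, the elongation factor for selenocysteine, was lower in both recipient groups than in HS (log2 changes -0.40 in A10-FMT and -0.36 in Con-FMT, adjusted p = 0.0232 and 0.0277 by limma), and Secisbp2, which binds the selenocysteine element of mRNAs, was lower in HS+A10 than in HS (-0.32, adjusted p = 0.0453). Each of these calls was lost without any 1 of 4 libraries (adjusted p up to 0.0802, 0.0941 and 0.180). In HS+A10 against A10, G6pdx (-0.89) and Pgd (-0.81), which make NADPH, and Tkt, transketolase of the same pentose phosphate route (-0.84), were lower and held without any single library. These 3 were named after their values were seen.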
